A study of Homo sapiens with 8 samples.

Results

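Collagen genes and the genes of the enzymes that modify and cross-link collagen were followed in MDA-MB-231 cells, an established triple-negative breast cancer line, after an siRNA against ADAR1 or a control siRNA. Members were chosen by symbol: every gene named as a collagen alpha chain, the prolyl 4-hydroxylase alpha subunits, the PLOD lysyl hydroxylases, the lysyl oxidases and the chaperone gene SERPINH1. A mean estimated count of 10 or more over the 8 libraries was also required. Of 56 genes with such names, 33 passed, against 12472 of all 19892 genes. They were 22 of 44 collagen genes and 11 of 12 genes for the enzymes and the chaperone. COL3A1, with a mean count of 10.1, and LOXL3, with 20.7, lay just inside the minimum, and COL4A6 with 9.75 and COL11A2 with 7.50 lay just outside it. COL3A1 passed only through control Ribo-seq replicate 1, where it had 45 counts, against at most 12 in any other library. COL2A1, COL9A1, COL22A1 and COL23A1 had 0 counts in all 8 libraries.

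The study held 4 groups of 2 libraries: Ribo-seq of cells with ADAR1 siRNA, Ribo-seq of cells with control siRNA, Input of cells with ADAR1 siRNA and Input of cells with control siRNA. Ribo-seq sequences RNA fragments of about 30 nt that ribosomes protect (footprints), and Input is the RNA-seq made from fragments of 40 to 60 nt. All 8 libraries came from this single line, and every group received an siRNA, so no untreated cells were measured. The sources used here do not give the siRNA sequences, their dose or the time of harvest. The labels do not state whether replicates are separate cultures, and p-values therefore reflect the spread between these particular libraries, which may be technical.

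Collagens are secreted proteins of 3 alpha chains wound into a triple helix. The chains are made on ribosomes at the endoplasmic reticulum (ER), where prolyl and lysyl residues are hydroxylated and the chaperone HSP47, encoded by SERPINH1, binds the folded helix before export. Outside the cell, lysyl oxidases cross-link collagen molecules. Fibrillar collagens form the fibres of connective tissue, collagen IV forms the network of basement membranes, and collagen VI forms beaded filaments. In breast tumours these matrix proteins come from fibroblasts and also from the cancer cells.

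Input libraries held 15732757 to 17153716 estimated counts and Ribo-seq libraries 10492223 to 14875465. ADAR, the targeted gene, stood at 14.8 and 30.6 TPM in ADAR1 siRNA Input, against 106 and 110.2 TPM in control Input. All 7 markers of MDA-MB-231 cells were detected in each group, with summed TPM of 8154 to 8740 in ADAR1 siRNA Input and 8093 to 8101 in control Input. In Ribo-seq their sum was 4007 to 5148 with ADAR1 siRNA and 4920 to 5297 with control siRNA. Of the marker lists of other cells, summed TPM in Ribo-seq was 23.5 to 26.7 with ADAR1 siRNA and 19.8 to 22.1 with control siRNA for 7 luminal markers. For 5 endothelial markers it was 2.97 to 3.77 with ADAR1 siRNA and 2.39 to 2.71 with control siRNA. For 5 immune markers, nearly all of it CD68, the sum was 180.0 to 185 with ADAR1 siRNA and 234 in both controls in Input. The 7 fibroblast markers summed to 11.2 to 12.8 TPM with ADAR1 siRNA and 11.8 to 14.5 TPM with control siRNA in Ribo-seq, mostly THY1. Their part in the collagen results was not tested, and in these bulk libraries a change in the number of expressing cells and one in RNA per cell cannot be told apart. With 2 libraries against 2, the smallest two-sided p of an exact permutation test is 0.333, and tests of single genes therefore rest on edgeR's quasi-likelihood fit across all genes.

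Some libraries stood apart for these genes. Control Ribo-seq replicate 1 held 45 COL3A1 counts, 19 DCN counts and 14 POSTN counts, where control replicate 2 held 0 of each. Decorin (DCN) and periostin (POSTN) are matrix proteins typical of fibroblasts, and both genes also had 0 counts in both ADAR1 siRNA Ribo-seq libraries. In ADAR1 siRNA Input, DCN had 14 and 3 counts and POSTN 4 and 5. Other fibroblast markers differed less between control Ribo-seq replicates 1 and 2, with THY1 at 102 and 85, PDGFRB at 46 and 29.0 and PDGFRA at 2 and 2. LUM had 18 and 3 and FAP 3 and 0. Control Ribo-seq replicate 1 also held 94.5 COL1A2 counts and 111 COL1A1 counts, against 7.15 and 40.9 in control replicate 2. The footprint results for COL1A1 and COL1A2 are given below with and without this library, and COL3A1 and COL5A2 were not tested in footprints. The ADAR1 siRNA replicates also differed from each other more than the controls did. The SD over all tested genes of the log2 difference between replicates was 0.34 in ADAR1 siRNA Input and 0.21 in control Input, and 0.43 in ADAR1 siRNA Ribo-seq and 0.33 in control Ribo-seq.

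**Figure D1:**
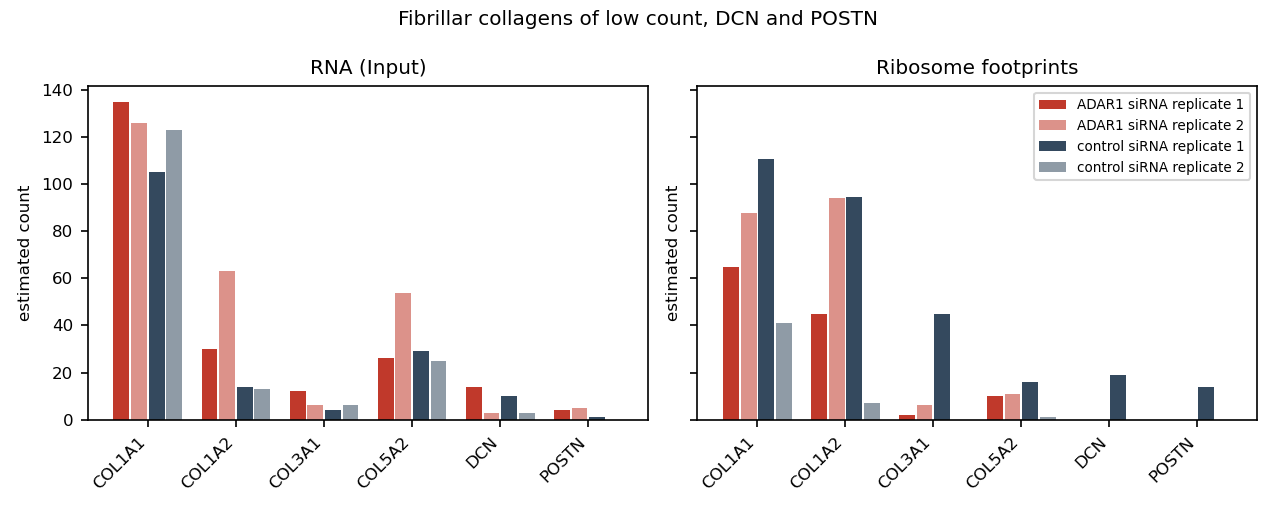
Estimated counts of 4 fibrillar collagen genes and of DCN and POSTN in each library (bars from 0; left, Input; right, Ribo-seq). In Ribo-seq the first control bar stands above the second for every gene shown, with 45 COL3A1 counts against 0.

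The clearest result lay in ribosome footprints. Footprints of 7 members rose with ADAR1 siRNA and those of 0 members fell: COL5A1, COL18A1, COL4A1, the hydroxylase genes P4HA1 and PLOD2, the chaperone gene SERPINH1 and the lysyl oxidase gene LOXL2. Fold changes ran from 1.51 for LOXL2 to 2.45 for COL5A1. They were 7 of 31 members tested in Ribo-seq, where 1.88% of all 12000 genes were called higher and 1.67% lower, 3.54% in all (edgeR, adjusted p under 0.05). The calls over all genes were 225 higher and 200 lower, a split that moved to 311 and 176 with upper-quartile scaling and to 391 and 587 with DESeq2. At an unadjusted p under 0.05 there were 16 members, and 24.0% of all genes. COL3A1 and COL5A2 had too few footprints to be tested. The median log2 difference was 0.50 over the 31 members and 0.05 over all genes, and 25 of the 31 lay above 0, as did 54.4% of all genes. Over the 25 members with a mean count of 50 or more, 23 lay above 0, with a median of 0.59. Both ADAR1 siRNA libraries lay above both controls for 17 of the 31 members, against 30.1% of all genes, and below both for COL15A1 and COL17A1, against 26.2%. Libraries were also left out one at a time. The median log2 difference over the members was 0.52 without ADAR1 siRNA Ribo-seq replicate 1 and 0.37 without replicate 2. It was 0.53 without control replicate 1 and 0.43 without control replicate 2. Over all genes these medians were 0.0095, 0.009, 0.0506 and 0.046. A group with 1 library left was assumed to vary like the other group.

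In RNA no member was called in either direction. In Input, 0 of 32 members tested were called by edgeR, against 0.253% of 12644 genes. The same fit did not call ADAR, the siRNA target, at -2.26 ± 0.32 (adjusted p = 0.0527). A member that was not called can therefore still have changed in RNA. At an unadjusted p under 0.05 there were 10 members, and 25.3% of all genes. With limma-voom 0 members and 30 of all genes were called. DESeq2 called 3 members and 449 of all genes. These 3 were COL6A1, COL6A2 and COL13A1, each lower with ADAR1 siRNA. Without ADAR1 siRNA Input replicate 1 the median log2 difference over the members was 0.09, and without replicate 2 it was -0.13. Over all genes these medians were -0.002 and -0.0057. The members divided evenly, 16 above 0 (50.6% of all genes) and 16 below, with a median log2 difference of -0.0027, and of 0.0037 over all genes. The ADAR1 siRNA libraries lay above both controls for 7 members (28.5% of all genes) and below both for 10 (29.7%).

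Translational efficiency relates footprints to RNA, and its change was tested as the interaction of siRNA and assay. By edgeR 0 of 33 members passed, against 0.0463% of 12953 genes. In simulated data this test recovered 6% of 1.5-fold changes and 50% of 2-fold changes. A member that was not called can therefore still have changed by such a fold. The median log2 difference was 0.53 over the members and 0.09 over all genes, and 26 of 33 members lay above 0, as did 57.3% of all genes. At an unadjusted p under 0.05 there were 17 members, and 22.7% of all genes. DESeq2 called 10 members and limma-voom 0. Without ADAR1 siRNA Ribo-seq replicate 1 edgeR called 6 members, and without replicate 2 it called 11. In the authors' deposited ratios of Ribo-seq TPM to Input TPM, the median over the 25 members with a mean count of 50 or more was 0.689 with ADAR1 siRNA and 0.424 with control siRNA. Over all 12357 genes with a ratio in every pair of libraries it was 0.361 with ADAR1 siRNA and 0.379 with control siRNA. Both deposited ratios with ADAR1 siRNA exceeded both controls for 19 of 32 members, against 24.6% of all genes, and LOX alone lay below both, against 28.3%. The 2 assays' TPM values did not share the same gene lengths, so these ratios are best read within a gene.

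**Figure D2:**
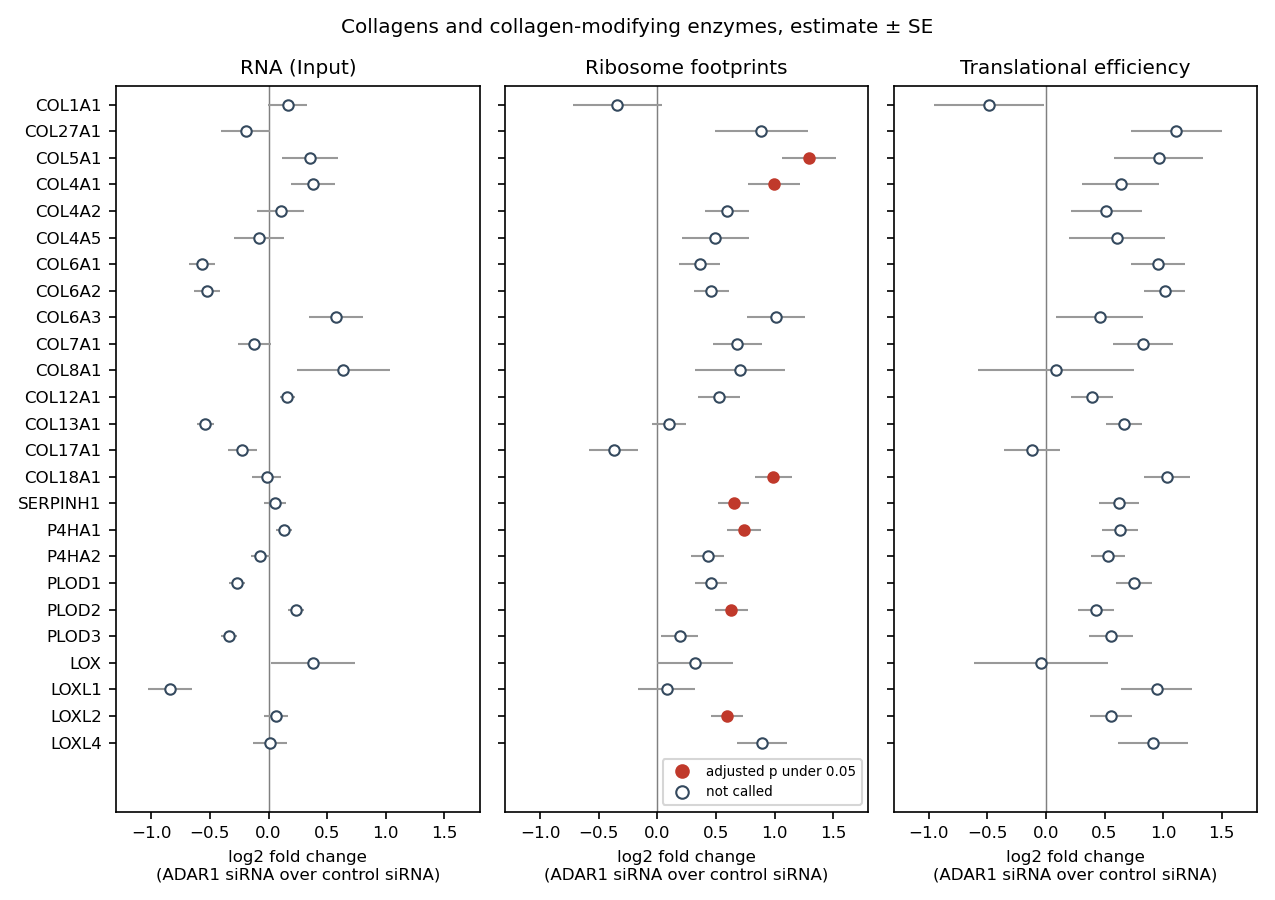
Log2 fold change, ADAR1 siRNA over control siRNA, of the 25 members with a mean count of 50 or more, in RNA, footprints and translational efficiency (points, edgeR estimates; bars, SE; filled, adjusted p under 0.05). In footprints 23 of the 25 points lie right of 0 and 7 are filled, whereas in RNA and translational efficiency 0 are filled.

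Among the fibrillar collagens, COL5A1 had the largest footprint change of all members. Its product, the alpha 1 chain of collagen V, takes part in starting collagen fibrils and in setting their width. Footprints of COL5A1 (NCBI gene 1289; GRCh38.p14 chr9:134641803-134844843) stood at 15.1 and 29.0 TPM with ADAR1 siRNA, against 9.28 and 9.40 TPM with control siRNA. Both ADAR1 siRNA libraries lay above both controls, and replicate 2 lay well above replicate 1. The log2 fold change was 1.29 ± 0.23 (SE, adjusted p = 0.0336), and it stayed called whichever single Ribo-seq library was left out, at 0.81 to 1.64. In Input COL5A1 stood at 35.6 and 60.2 TPM with ADAR1 siRNA, against 37.9 and 36.9 TPM with control siRNA. Only replicate 2 lay above the controls there, and the RNA difference of 0.35 ± 0.24 was not called (adjusted p = 0.396). COL27A1, a collagen of cartilage and other tissues, had few footprints, 0.473 and 0.462 TPM with ADAR1 siRNA and 0.284 and 0.329 TPM with control siRNA. Its RNA stood at 4.09 and 5.50 TPM with ADAR1 siRNA, against 5.32 and 5.64 TPM with control siRNA. The 2 groups did not overlap in footprints but did in RNA. The translational efficiency difference of 1.11 ± 0.39, the furthest above 0 among the members, was not called (adjusted p = 0.128).

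Type I collagen genes were near the floor of these libraries. COL1A1 had 65 and 88 footprint counts with ADAR1 siRNA, against 111 and 40.9 with control siRNA. COL1A2 had 45 and 94 with ADAR1 siRNA, against 94.5 and 7.15 with control siRNA. The controls lay on both sides of the ADAR1 siRNA libraries for both genes. The log2 footprint difference was -0.34 ± 0.38 for COL1A1 and 0.13 ± 0.71 for COL1A2, and neither was called (adjusted p = 0.621 and 0.928). Without control Ribo-seq replicate 1 they were 0.42 and 2.80, and COL1A2 then passed (adjusted p = 0.00321). Without control replicate 2 they were -0.82 and -0.73. In RNA COL1A2 had 30 and 63 counts with ADAR1 siRNA, against 14 and 13 with control siRNA, a log2 difference of 1.74 ± 0.46 that was not called (adjusted p = 0.0965). COL1A1 and COL1A2 counts were fractional in the control Ribo-seq libraries although their sum was whole, 205 in replicate 1 and 48 in replicate 2, and the sources used here do not say how the fractions arose. The cause of the difference between the control libraries was not tested. COL3A1 had 2 and 6 footprint counts with ADAR1 siRNA, against 45 and 0 with control siRNA, and COL5A2 had 10 and 11 with ADAR1 siRNA, against 16 and 1 with control siRNA. Without control replicate 1, COL3A1 would be compared with 0 and COL5A2 with 1 count, so no fold is given for either.

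The collagen IV chains share an unusual gene arrangement. COL4A1 and COL4A2, whose chains join in the most common collagen IV molecule, lie head to head on chromosome 13 and are transcribed away from a common promoter. The 126 bases between their annotated starts (GRCh38.p14 chr13:110307158-110307283, plus strand, from RefSeq) are shown because both genes take their start here. The CCAAT box, the only one on either strand, is in capitals.
COL4A1 to COL4A2: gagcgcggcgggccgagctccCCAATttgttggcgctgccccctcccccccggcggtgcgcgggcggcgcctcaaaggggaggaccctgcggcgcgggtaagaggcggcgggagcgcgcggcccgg
In the 250 bases before the start, CCAAT occurred on either strand in 32.0% of all 35116 RefSeq promoters. The 26 members with an entry had 32 promoters, and CCAAT occurred in 8 of these, from 8 members.

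Footprints of COL4A1 (NCBI gene 1282; chr13:110148963-110307157) stood at 10.7 and 18.6 TPM with ADAR1 siRNA, against 7.32 and 6.63 TPM with control siRNA. The groups did not overlap, and the log2 fold change of 1.00 ± 0.22 was called (adjusted p = 0.0451). The call was lost without control Ribo-seq replicate 2, at 0.90 (adjusted p = 0.194), and with limma-voom, at 0.96 (adjusted p = 0.0576). Without ADAR1 siRNA replicate 2 it was 0.56, still called. COL4A2 footprints stood at 15.2 and 25.1 TPM with ADAR1 siRNA, against 14.01 and 14.05 TPM with control siRNA. They were above the controls in both libraries, but the difference of 0.60 ± 0.19 was not called (adjusted p = 0.0937). In Input, COL4A1 stood at 22.7 and 33.1 TPM with ADAR1 siRNA, against 21.2 and 21.7 TPM with control siRNA. COL4A2 stood at 47.2 and 71.9 TPM with ADAR1 siRNA, against 55.9 and 54.2 TPM with control siRNA. Both head-to-head genes were thus higher in replicate 2 than in replicate 1 of the ADAR1 siRNA Input, by 1.53-fold and 1.61-fold after scaling. Neither RNA difference was called (adjusted p = 0.254 for COL4A1 and 0.780 for COL4A2). COL4A5 and COL4A4 showed footprint differences of 0.50 and -0.41, neither called. COL4A4 overlaps RHBDD1 in the annotation, and the sources used here do not say whether reads were counted by strand.

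Of the 3 collagen VI genes, 0 were called in any comparison by edgeR. COL6A1 and COL6A2, which encode partner chains of the collagen VI monomer, had RNA below both controls and footprints above both. COL6A1 RNA stood at 66.3 and 50.3 TPM with ADAR1 siRNA, against 87.2 and 82.7 TPM with control siRNA. Its footprints stood at 49.7 and 40.6 TPM with ADAR1 siRNA, against 35.4 and 40.3 TPM with control siRNA. In RNA the ADAR1 siRNA libraries lay below both controls, and in footprints both lay above them, by little for replicate 2. COL6A2 RNA stood at 22.1 and 24.9 TPM with ADAR1 siRNA, against 33.7 and 33.2 TPM with control siRNA. COL6A2 footprints stood at 18.1 and 18.6 TPM with ADAR1 siRNA, against 14.5 and 13.9 TPM with control siRNA. The groups again did not overlap in either assay, in opposite directions. RNA differences were -0.57 ± 0.11 and -0.53 ± 0.11 (adjusted p = 0.0713 for COL6A1 and 0.0767 for COL6A2), and footprint differences 0.36 ± 0.18 and 0.46 ± 0.15 (adjusted p = 0.245 and 0.0991). Translational efficiency differed by 0.95 ± 0.23 and 1.01 ± 0.18, close to the threshold for both (adjusted p = 0.0602 and 0.0534), and DESeq2 called both (adjusted p = 0.00401 and 0.000984). The deposited efficiencies of COL6A2 were 0.817 and 0.746 with ADAR1 siRNA, against 0.431 and 0.417 with control siRNA. COL6A3, the longest of these chains, was higher in RNA too. Its RNA stood at 12.3 and 19.7 TPM with ADAR1 siRNA, against 10.5 and 10.7 TPM with control siRNA. COL6A3 footprints stood at 1.77 and 2.82 TPM with ADAR1 siRNA, against 1.14 and 1.18 TPM with control siRNA. Both were above the controls in both libraries, and the footprint difference of 1.01 ± 0.24 just missed the threshold (adjusted p = 0.0519). The RNA difference of 0.58 ± 0.23 was not called (adjusted p = 0.186).

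COL18A1 had the smallest footprint p among the members. It encodes a basement membrane collagen that carries heparan sulfate, and endostatin is released from its end. Footprints of COL18A1 (NCBI gene 80781; chr21:45405165-45513720) stood at 13.4 and 18.3 TPM with ADAR1 siRNA, against 8.38 and 8.49 TPM with control siRNA. RNA stood at 20.8 and 24.9 TPM with ADAR1 siRNA, against 23.7 and 22.2 TPM with control siRNA. Footprints did not overlap between the groups, whereas RNA did. The footprint change was 0.99 ± 0.16 (adjusted p = 0.0278) and the RNA difference -0.02 ± 0.12 (adjusted p = 0.948). Translational efficiency differed by 1.03 ± 0.20 and missed the threshold (adjusted p = 0.0534). The footprint call was lost without control Ribo-seq replicate 2, at 0.98 (adjusted p = 0.118). COL18A1 overlaps SLC19A1 in the annotation, which had a mean count of 0.75. COL15A1, the other member of this class, had 0.245 and 0.263 TPM of footprints with ADAR1 siRNA, against 0.284 and 0.382 TPM with control siRNA, and was not called. Its RNA, at 0.821 and 0.783 TPM with ADAR1 siRNA and 1.09 and 0.550 TPM with control siRNA, overlapped.

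Of the transmembrane collagens, COL13A1 had the RNA difference nearest to the threshold. COL13A1 RNA stood at 67.8 and 69.5 TPM with ADAR1 siRNA, against 99.1 and 97.4 TPM with control siRNA. Its footprints stood at 58.7 and 74.1 TPM with ADAR1 siRNA, against 66.2 and 64.5 TPM with control siRNA. RNA was lower in both ADAR1 siRNA libraries and tight within each group, and footprints overlapped. The RNA difference was -0.54 ± 0.07 (adjusted p = 0.0527) and the footprint difference 0.10 ± 0.14 (adjusted p = 0.715). COL17A1, a collagen of hemidesmosomes, had footprints at 1.59 TPM in both ADAR1 siRNA libraries, against 1.94 and 2.48 TPM with control siRNA. This lowest footprint value among members with a mean of 50 or more counts in Ribo-seq, -0.37 ± 0.21, was not called (adjusted p = 0.309). COL17A1 RNA, at 7.999 and 6.61 TPM with ADAR1 siRNA and 8.11 and 8.71 TPM with control siRNA, lay below both controls, by little for replicate 1, and was not called. The translational efficiency differences furthest below 0 among members with a mean of 50 or more counts were those of COL1A1 (-0.49 ± 0.47) and COL17A1 (-0.12 ± 0.24), and neither was called.

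Network-forming COL8A1 differed most between the ADAR1 siRNA replicates. COL8A1 RNA stood at 49.8 and 126 TPM with ADAR1 siRNA, against 55.1 and 58.2 TPM with control siRNA. Its footprints stood at 21.1 and 72.6 TPM with ADAR1 siRNA, against 30.3 and 29.3 TPM with control siRNA. Replicate 1 lay below both controls and replicate 2 above them in each assay. The RNA difference of 0.64 ± 0.40 was not called (adjusted p = 0.356). It was 1.18 without ADAR1 siRNA replicate 1 and -0.24 without replicate 2, and the footprint difference of 0.70 ± 0.38 likewise became 1.30 and -0.36. COL7A1, which forms the anchoring fibrils of skin, had footprints at 1.68 and 2.58 TPM with ADAR1 siRNA, against 1.35 and 1.49 TPM with control siRNA. The groups did not overlap, but 0.68 ± 0.21 was not called (adjusted p = 0.0842). Its RNA stood at 7.14 and 8.79 TPM with ADAR1 siRNA, against 8.89 and 8.33 TPM with control siRNA.

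COL12A1, which binds to the surface of fibrils, was the most abundant of the fibril-associated collagens in RNA, with 33.8 and 32.3 TPM with ADAR1 siRNA and 28.4 and 29.7 TPM with control siRNA. Its footprints stood at 2.29 and 2.69 TPM with ADAR1 siRNA, against 2.00 and 1.67 TPM with control siRNA. Both assays were higher in both ADAR1 siRNA libraries, and neither difference was called (RNA 0.16 ± 0.06, adjusted p = 0.189; footprints 0.53 ± 0.18, adjusted p = 0.114). COL9A2, a chain of collagen IX, had RNA at 2.42 and 1.73 TPM with ADAR1 siRNA and 2.71 and 2.72 TPM with control siRNA, and footprints at 0.799 and 0.979 TPM with ADAR1 siRNA and 0.986 and 1.14 TPM with control siRNA. COL9A2 and COL16A1 were not called in any comparison.

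The same siRNA library, replicate 2, stood above replicate 1 for 8 of the 25 members with a mean count of 50 or more by over 1.5-fold in Input, and replicate 1 above replicate 2 for 0. Over all 12644 genes tested, which were not limited to a mean count of 50, the shares were 3.65% and 3.88%. The 8 were COL8A1 (2.67-fold), LOX (2.40-fold), COL5A1, COL6A3, COL4A2, COL27A1, COL4A1 and COL4A5 (1.51-fold). Between the control Input replicates 0 members differed by that much. In Ribo-seq the ADAR1 siRNA replicates differed by over 1.5-fold for 6 members in the same direction and for LOXL4 in the other. Over all 12000 genes tested in Ribo-seq, at any count, the shares were 7.46% and 6.05%. ADAR stood at 30.6 TPM in the Input replicate with the higher collagen values and at 14.8 TPM in the other, and its part in this difference was not tested.

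**Figure D3:**
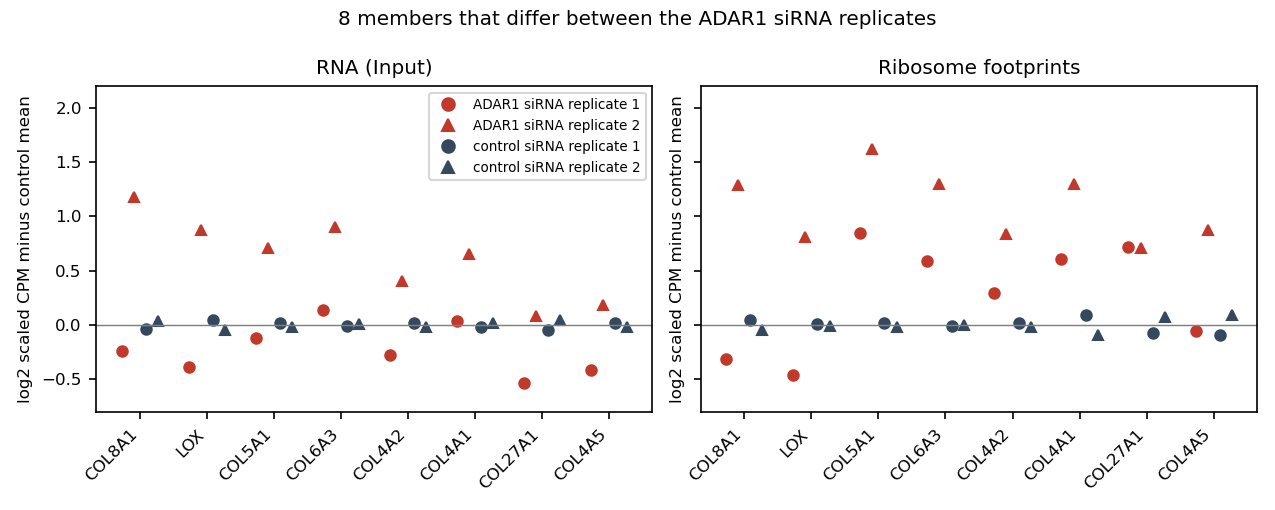
Log2 scaled CPM minus the control mean (vertical axis) in each library for the 8 members that were over 1.5-fold higher in ADAR1 siRNA replicate 2 than in replicate 1 in Input (left, Input; right, Ribo-seq). For COL8A1 and LOX the replicates lie on opposite sides of the controls in both assays, whereas for COL5A1 both footprint points lie above them.

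Of the 11 genes for the enzymes and the chaperone, 4 rose in footprints. All 11 had log2 footprint differences above 0, with a median of 0.59, whereas 14 of the 20 collagen genes tested lay above 0 and 3 rose. Of all genes, 1.88% were called higher and 54.4% lay above 0. Whether enzymes and chains differ was not tested. As a share of all Ribo-seq counts, the 11 genes took 0.280% and 0.286% with ADAR1 siRNA, against 0.194% and 0.192% with control siRNA. In Input they took 0.127% and 0.142% with ADAR1 siRNA, against 0.130% and 0.132% with control siRNA. The groups did not overlap in Ribo-seq and did in Input. SERPINH1 and LOXL2, both called in footprints, held more counts than any other of the 11 genes in every Ribo-seq library. The Ribo-seq shares thus rest in large part on these 2 genes.

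SERPINH1, the most highly expressed member, encodes HSP47, the chaperone of the ER that binds procollagen. Footprints of SERPINH1 (NCBI gene 871; chr11:75562253-75572783) stood at 437 and 459 TPM with ADAR1 siRNA, against 297 and 312 TPM with control siRNA. Its RNA stood at 282 and 314 TPM with ADAR1 siRNA, against 275 and 294 TPM with control siRNA. The replicates were close in each group, and only the footprints of the 2 groups lay apart. The footprint change was 0.65 ± 0.13 (adjusted p = 0.0422) and the RNA difference 0.05 ± 0.09 (adjusted p = 0.753). The deposited efficiency was 1.55 and 1.46 with ADAR1 siRNA, against 1.08 and 1.06 with control siRNA, and the test of its change missed the threshold (0.62 ± 0.17, adjusted p = 0.0721).

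P4HA1 and P4HA2 encode catalytic subunits of prolyl 4-hydroxylase, which makes the hydroxyproline that holds the triple helix together. Footprints of P4HA1 (NCBI gene 5033; chr10:73007217-73096866) stood at 75.9 and 82.0 TPM with ADAR1 siRNA, against 51.8 and 49.1 TPM with control siRNA. Its RNA stood at 103.8 and 91.2 TPM with ADAR1 siRNA, against 88.4 and 87.2 TPM with control siRNA. Both assays were higher with ADAR1 siRNA, footprints by the wider margin, at 0.74 ± 0.14 (adjusted p = 0.0393) against 0.13 ± 0.07 in RNA (adjusted p = 0.283). P4HA2 footprints stood at 71.4 and 78.5 TPM with ADAR1 siRNA, against 57.1 and 61.6 TPM with control siRNA. P4HA2 RNA stood at 57.5 and 58.8 TPM with ADAR1 siRNA, against 60.5 and 60.3 TPM with control siRNA. The P4HA2 footprint difference of 0.43 ± 0.14 was not called (adjusted p = 0.101).

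PLOD1, PLOD2 and PLOD3 encode lysyl hydroxylases, and PLOD2 acts on the telopeptides, where cross-links form. Footprints of PLOD2 (NCBI gene 5352; chr3:146069440-146161184) stood at 60.0 and 72.8 TPM with ADAR1 siRNA, against 46.7 and 44.4 TPM with control siRNA. Its RNA stood at 157 and 158 TPM with ADAR1 siRNA, against 135 and 129 TPM with control siRNA. The groups did not overlap in either assay. The footprint change was 0.63 ± 0.14 (adjusted p = 0.0460) and the RNA difference of 0.23 ± 0.07 was not called (adjusted p = 0.116). PLOD1 RNA stood at 96.7 and 99.2 TPM with ADAR1 siRNA, against 116 and 117 TPM with control siRNA. PLOD1 footprints stood at 82.9 and 90.1 TPM with ADAR1 siRNA, against 68.6 and 66.0 TPM with control siRNA. PLOD1 and PLOD3 thus had lower RNA than both controls, at -0.27 ± 0.07 and -0.34 ± 0.07, and footprints that were not lower, at 0.46 ± 0.14 and 0.19 ± 0.16. None of these 4 values was called (adjusted p = 0.0933 and 0.0732 in RNA, 0.0854 and 0.495 in footprints).

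The promoters of SERPINH1, P4HA1 and PLOD2 are shown as those of the called ER members, whose RNA was not called. Each sequence holds the 250 bases before the annotated start (RefSeq, GRCh38.p14), read in the direction of transcription. Capitals mark GAANNTTC, the core of a heat shock element, in SERPINH1 (chr11:75562003-75562252, plus strand). In P4HA1 (chr10:73096867-73097116, minus strand) and PLOD2 (chr3:146161185-146161434, minus strand) they mark ACGTG, the core that hypoxia-inducible factors bind, or its reverse complement.
SERPINH1: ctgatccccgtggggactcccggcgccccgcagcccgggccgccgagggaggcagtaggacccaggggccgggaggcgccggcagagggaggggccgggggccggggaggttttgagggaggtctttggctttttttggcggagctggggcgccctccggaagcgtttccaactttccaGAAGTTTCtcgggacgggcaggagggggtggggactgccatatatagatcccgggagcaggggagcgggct
P4HA1: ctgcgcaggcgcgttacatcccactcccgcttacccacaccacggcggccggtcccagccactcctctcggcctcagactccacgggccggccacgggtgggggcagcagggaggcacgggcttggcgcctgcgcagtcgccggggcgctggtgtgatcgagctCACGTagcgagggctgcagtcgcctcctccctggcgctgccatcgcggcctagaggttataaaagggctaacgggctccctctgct
PLOD2: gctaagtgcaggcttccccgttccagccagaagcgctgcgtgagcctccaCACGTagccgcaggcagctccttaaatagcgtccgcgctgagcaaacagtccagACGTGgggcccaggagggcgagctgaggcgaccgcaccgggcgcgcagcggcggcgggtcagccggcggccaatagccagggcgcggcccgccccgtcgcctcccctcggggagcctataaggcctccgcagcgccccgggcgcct
In the 250 bases before the start, GAANNTTC was found in 5.78% of all promoters. It was found in 3 of the 32 promoters of the 26 members with an entry, those of SERPINH1, COL7A1 and COL4A5. ACGTG was found in 18.5% of all promoters and in 10 of these 32. The 10 belonged to 7 members, SERPINH1, PLOD2, COL5A1, P4HA1, COL12A1, LOX and COL15A1. The SERPINH1 match lay in another promoter of the gene, not in the sequence shown. The search covered 7 motifs on both strands, and those marked here were picked from them. Besides CCAAT, the others were GGGCGG in 20 of the 32 promoters (42.6% of all promoters) and CAGAC in 13 (38.0%). TATAAA was in 6 (10.7%) and TGANTCA in 0 (6.57%). Sites of these others are not marked in the sequences shown. A match describes the letters only.

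Lysyl oxidases had footprint differences above 0 in all 5 cases, and 1 passed. Of all genes, 54.4% lay above 0 and 1.88% were called higher. The differences of LOXL1 (0.08 ± 0.24) and LOX (0.32 ± 0.32) changed sign when single libraries were left out. Footprints of LOXL2 (NCBI gene 4017), which oxidises lysines of collagen IV among other substrates, stood at 161 and 208 TPM with ADAR1 siRNA, against 125 and 135 TPM with control siRNA. LOXL2 RNA stood at 200.2 and 233 TPM with ADAR1 siRNA, against 202 and 210 TPM with control siRNA. The footprints did not overlap and the RNA did. The footprint change was 0.59 ± 0.14 (adjusted p = 0.0490) and the RNA difference 0.06 ± 0.10 (adjusted p = 0.743). LOXL4 footprints stood at 40.1 and 28.1 TPM with ADAR1 siRNA, against 19.2 and 20.4 TPM with control siRNA. The difference of 0.90 ± 0.21 just missed the threshold (adjusted p = 0.0502), and LOXL4 RNA stood at 48.5 and 33.1 TPM with ADAR1 siRNA, against 40.3 and 39.5 TPM with control siRNA. LOXL1 RNA, at 5.82 and 5.37 TPM with ADAR1 siRNA and 9.67 and 8.41 TPM with control siRNA, was the lowest relative to control among members with a mean of 50 or more counts. Its difference of -0.84 ± 0.19 was not called (adjusted p = 0.0796), and its footprints, at 4.75 and 3.69 TPM with ADAR1 siRNA and 4.16 and 4.34 TPM with control siRNA, overlapped. The LOX replicates lay on opposite sides of the controls, with RNA at 26.3 and 60.4 TPM with ADAR1 siRNA, against 34.5 and 32.2 TPM with control siRNA. LOXL3 RNA, near the count minimum, stood at 1.61 and 1.67 TPM with ADAR1 siRNA, against 1.94 and 0.841 TPM with control siRNA. LOX overlaps SRFBP1 in the annotation, and LOXL3 overlaps HTRA2, so their counts are uncertain.

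**Figure D4:**
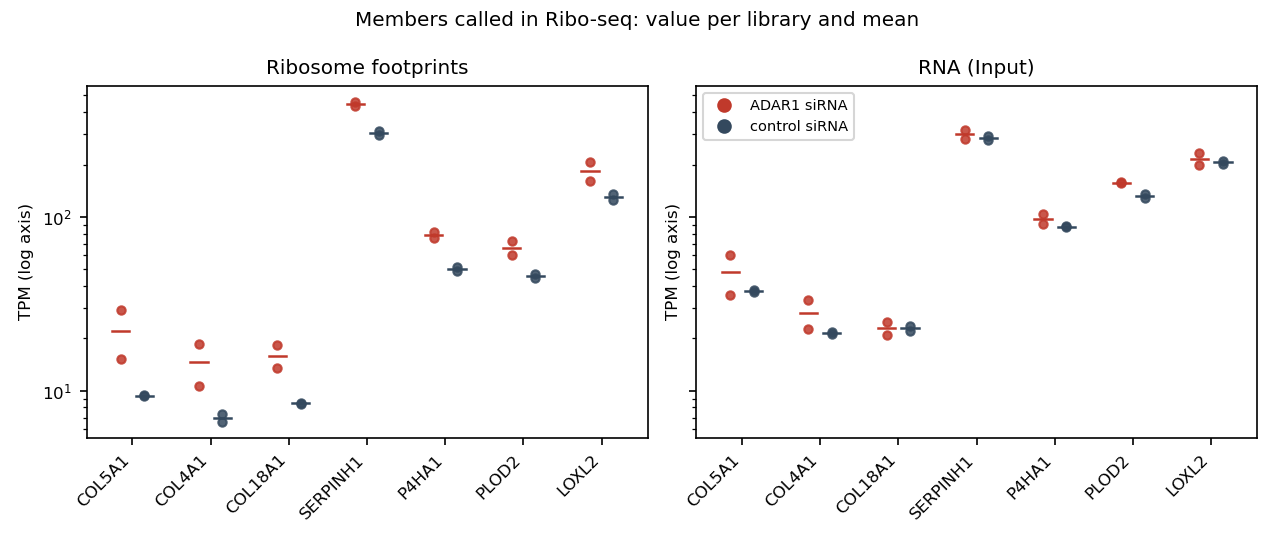
TPM on a log axis of the 7 members called in Ribo-seq, in each library (points) with the group mean (line), for footprints (left) and RNA (right). In footprints both ADAR1 siRNA points lie above both control points for all 7, which were picked by their calls in these libraries. In RNA the groups overlap for COL5A1, COL18A1, SERPINH1 and LOXL2.

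The 7 calls differed in how far they depended on single libraries and on the tool. COL5A1 was called in all 4 omissions of a Ribo-seq library. COL4A1 and COL18A1 lost their call without control replicate 2. SERPINH1, P4HA1, PLOD2 and LOXL2 lost theirs without either control library. The 2 estimates were then 0.63 and 0.67 for SERPINH1, 0.79 and 0.68 for P4HA1, 0.69 and 0.57 for PLOD2, and 0.56 and 0.63 for LOXL2. With limma-voom COL4A1, PLOD2 and LOXL2 were not called (adjusted p = 0.0576, 0.0516 and 0.0542), and with DESeq2's size factors in edgeR LOXL2 was not (adjusted p = 0.0519).

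**Figure D5:**
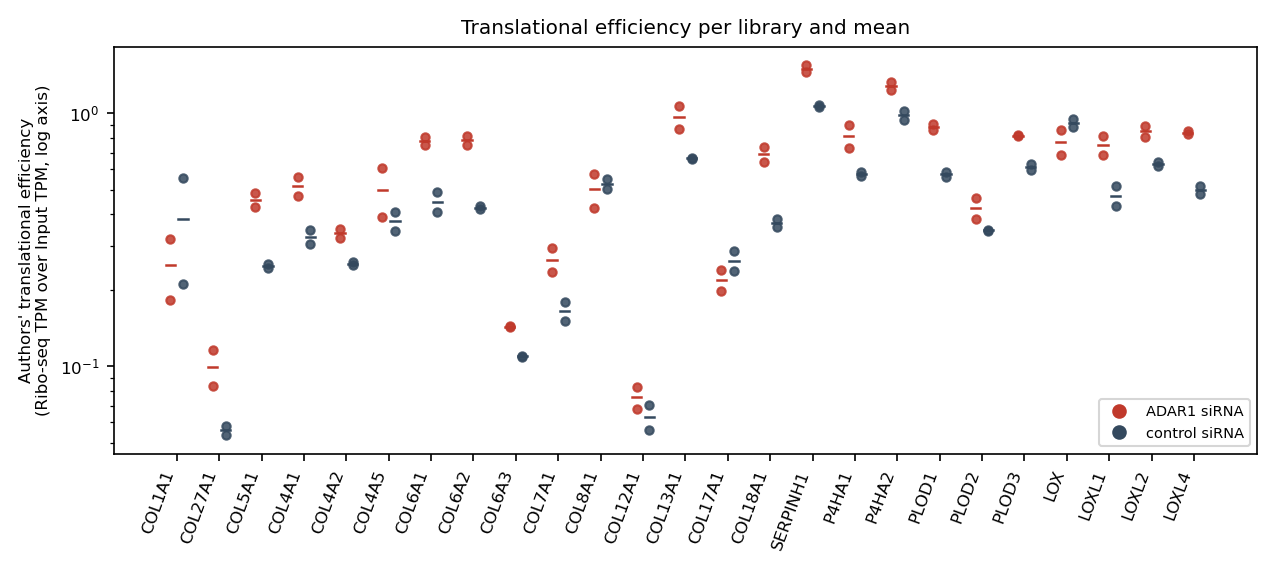
The authors' deposited translational efficiency (Ribo-seq TPM over Input TPM, log axis) in each pair of libraries (points) with the group mean (line), for the 25 members with a mean count of 50 or more. For COL6A1, COL6A2, COL18A1 and LOXL4 both ADAR1 siRNA points lie well above both controls, and LOX lies below them.

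Genes that act with collagen but are not in the set were compared by the same fits. Among 11 further folding and modification factors of the ER tested in Ribo-seq, 0 were called by edgeR (8 at an unadjusted p under 0.05), and all 11 lay above 0 with a median of 0.50. Of all genes tested in Ribo-seq, 1.88% were called higher, 24.0% had an unadjusted p under 0.05 and 54.4% lay above 0. They include P4HB, the partner subunit of prolyl 4-hydroxylase, with footprints at 545 and 600.0 TPM with ADAR1 siRNA, against 433 and 444 TPM with control siRNA (0.48 ± 0.13, adjusted p = 0.0631). COLGALT2, a collagen galactosyltransferase, stood at 0.74 ± 0.19 (adjusted p = 0.0571). Of 15 genes for procollagen export and processing 2 rose in footprints and 0 fell (10 above 0, median 0.13). CREB3L1, a membrane-bound transcription factor known to drive collagen genes, had footprints at 42.1 and 48.5 TPM with ADAR1 siRNA, against 29.4 and 28.0 TPM with control siRNA (0.75 ± 0.15, adjusted p = 0.0393). FURIN, the protease that cleaves many precursor proteins, had 5.38 and 8.96 TPM with ADAR1 siRNA, against 3.88 and 3.29 TPM with control siRNA (1.07 ± 0.23, adjusted p = 0.0433). Neither gene's RNA was called, at -0.04 and 0.07.

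Collagen receptors rose in 3 of 6 genes tested in Ribo-seq, and all 6 lay above 0, with a median of 0.86, against 1.88% called higher and 54.4% above 0 among all genes. ITGB1, the beta 1 integrin chain, had footprints at 615 and 627 TPM with ADAR1 siRNA, against 399 and 349 TPM with control siRNA (0.83 ± 0.14, adjusted p = 0.0334). DDR1, a receptor tyrosine kinase for collagen, had 5.12 and 6.43 TPM with ADAR1 siRNA, against 3.63 and 2.64 TPM with control siRNA (0.98 ± 0.22, adjusted p = 0.0460). MRC2, which takes up collagen fragments, had 11.3 and 18.5 TPM with ADAR1 siRNA, against 8.57 and 7.84 TPM with control siRNA (0.89 ± 0.19, adjusted p = 0.0434). In each of the 3 genes both ADAR1 siRNA libraries lay above both controls, as they did for 30.1% of all genes. The 3 were picked by their calls in these same libraries, so this adds no support. Of 8 matrix partners tested 5 lay above 0 and 1 rose (1.88% of all genes), FBN1, the fibrillin of microfibrils, with footprints at 2.96 and 4.77 TPM with ADAR1 siRNA, against 1.70 and 1.54 TPM with control siRNA (1.33 ± 0.21, adjusted p = 0.0261). THBS1, a matricellular protein, missed the threshold at 0.98 ± 0.24 (adjusted p = 0.0519). Of 4 collagen-degrading proteases 0 were called (1 at an unadjusted p under 0.05), with MMP14, the membrane collagenase, at 0.47 ± 0.17 (adjusted p = 0.140) and MMP1 at -0.54 ± 0.50.

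In RNA and in translational efficiency 0 genes of these 5 lists were called by edgeR. The RNA differences of smallest p were FBN1 at 0.78 ± 0.13 and TNC at -0.46 ± 0.10 among matrix partners, ITGB1 at 0.35 ± 0.06 and ITGA1 at 0.26 ± 0.10 among receptors, and FKBP14 at 0.40 ± 0.11 and P3H4 at -0.48 ± 0.18 in the ER. For export and processing they were PCOLCE at -1.86 ± 0.53 and SEC23A at 0.20 ± 0.06, and for proteases MMP2 at 0.59 ± 0.40 and MMP14 at -0.22 ± 0.17. Adjusted p-values of these 10 lay between 0.0647 and 0.456. In translational efficiency all 12 ER factors lay above 0, with a median of 0.55. Of all genes, 57.3% lay above 0, and the median was 0.09. The 12 included P4HB at 0.66 ± 0.15 (adjusted p = 0.0570) and COLGALT1 at 0.74 ± 0.19 (adjusted p = 0.0634). CREB3L1 stood at 0.82 ± 0.17 (adjusted p = 0.0538), BMP1, the procollagen C-proteinase, at 0.79 ± 0.19 (adjusted p = 0.0598), and DDR1 at 1.06 ± 0.27 (adjusted p = 0.0638). MRC2 stood at 1.06 ± 0.31, TNC at 0.65 ± 0.20 and MMP14 at 0.71, with adjusted p-values of 0.0853 to 0.157.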

How the data were processed

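RNA-seq of Input and Ribo-seq libraries was made from MDA-MB-231 cells with ADAR1 or control siRNA, grouped by their titles. Per the labels' protocols, lysates were spun through sucrose gradients, RNA of 30 nt (Ribo-seq) or 40 to 60 nt (Input) was cut from gels, and adapters were ligated at both ends before PCR. No molecular identifiers are mentioned. Processing used cutadapt, STAR, Bowtie2 and featureCounts with GRCh38 (hg38), per the submitters' processing notes. The sources used here do not give versions, settings or the use of strand.

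The authors deposited, for each gene and library, an estimated count without normalization, of which 87.0% to 90.1% per library were whole numbers. They also deposited TPM, a level per gene length and library. The third deposited value was translational efficiency, the ratio of Ribo-seq TPM to Input TPM. Symbols were looked up by NCBI gene number, and 19669 of 19892 matched. Coordinates and promoters are RefSeq's for GRCh38.p14.

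Estimated counts were rounded and tested over all genes with edgeR 4.0.16 in R 4.3.3, with TMM scaling, filterByExpr and two-sided quasi-likelihood tests. P-values were adjusted by the Benjamini-Hochberg method, and the threshold was 0.05. The RNA fit took the 4 Input libraries, the footprint fit the 4 Ribo-seq libraries, and the interaction fit all 8. A standard error is the log2 fold change over the square root of the F statistic. In data simulated with known changes, 15.05% of RNA calls, 7.89% of footprint calls and 5.56% of translational efficiency calls were false. In the same order, changes of 1.5-fold were recovered for 68%, 26% and 6% of the changed genes. For changes of 2-fold the shares were 91%, 78% and 50%. The simulation gave each gene the same spread in every library. In the real Input libraries the SD between replicates was 0.34 with ADAR1 siRNA and 0.21 with control siRNA. Simulated 4-fold RNA changes were recovered for 100%, whereas ADAR, at a log2 difference of -2.26, was not called. The simulated shares may therefore not hold for these libraries. Alternatives were limma-voom (limma 3.58.1), DESeq2 1.42.0, 2 other scalings, 2 other filters, a replicate block and omission of each library.

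The members and lists were chosen with earlier results of these data known. Values per library are given for members called in any comparison, the 2 of highest control TPM in each role, the 2 furthest above and below 0 in each comparison, and the 2 just inside the count minimum. From the 5 pathway lists, called genes and the 2 of smallest p per comparison are named. DCN, POSTN and the RNA of other members were added after their values were seen, and fitted folds of genes with 0 counts in a group are left out.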

Additional observations from a re-analysis of the deposited data

How the results depend on the processing

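With 2 libraries a group, each call rests on edgeR's shared estimate of the spread. Counts of calls below take higher and lower together. In footprints 13 members rose and 1 fell with no low count filter, whereas all members called by limma-voom rose. Members called in footprints without ADAR1 siRNA or control Ribo-seq replicate 2 went in both directions. Those called without replicate 1 of either siRNA group were all higher. The number of members called in RNA was 0, and it was 1 with no low count filter, 1 with a mean count of 50 or more, 3 with DESeq2 and 0 to 20 without 1 library. In footprints it was 7, and it was 14 with no filter, 4 with limma-voom and 2 to 18 without 1 library. In translational efficiency it was 0, and it was 8 with no filter, 10 with DESeq2 and 0 to 17 without 1 library or 1 replicate of both assays. Over all genes, RNA calls numbered 32, against 11 with upper-quartile scaling, 95 with no filter, 73 with a mean count of 50 or more, 449 with DESeq2 and 0 to 5420 without 1 library. Footprint calls numbered 425, against 1693 with no filter, 978 with DESeq2, 250 with limma-voom and 77 to 3415. Translational efficiency calls numbered 6, against 854 with no filter, 2 with a mean count of 50 or more, 982 with DESeq2, 0 with limma-voom and 0 to 3208. The cause of these differences was not tested. Leaving out ADAR1 siRNA replicate 2 in both assays gave 17 members and 3208 genes in translational efficiency, and leaving out control replicate 1 in both gave 0 members and 1 gene; these 2 settings were chosen after seeing the data.

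The labels do not state whether replicate numbers pair the libraries. Over 10800 genes, differences between replicates correlated at 0.03 between the siRNA groups in Input and 0.09 in Ribo-seq. Between assays they correlated at 0.41 with ADAR1 siRNA and at 0.01 with control siRNA. In translational efficiency the replicate block paired the Input and Ribo-seq libraries of the same siRNA and replicate number. With a replicate block, the members called were 7 in RNA, 16 in footprints and 11 in translational efficiency, and the genes called 1095, 2102 and 1169.

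Without 1 library, some log2 differences changed sign. In RNA, SERPINH1 ranged from -0.069 to 0.17, LOXL2 from -0.10 to 0.21, COL8A1 from -0.24 to 1.18, COL4A2 from -0.28 to 0.41, COL5A1 from -0.12 to 0.71, LOXL4 from -0.24 to 0.22, LOX from -0.39 to 0.88, COL18A1 from -0.20 to 0.14, COL7A1 from -0.32 to 0.055, COL4A5 from -0.43 to 0.19 and COL27A1 from -0.55 to 0.084. LOXL4 was also at -0.0082 with limma-voom and -0.0046 with the replicate block. In footprints COL8A1 ranged from -0.36 to 1.30, COL13A1 from -0.036 to 0.19, LOX from -0.51 to 0.83, COL4A5 from -0.11 to 0.90, LOXL1 from -0.12 to 0.21, COL1A1 from -0.82 to 0.42 and COL1A2 from -0.73 to 2.80. In translational efficiency COL8A1 ranged from -0.92 to 0.93, LOX from -0.81 to 0.69, COL17A1 from -0.29 to 0.022, COL1A1 from -0.98 to 0.30 and COL1A2 from -2.46 to 1.13.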
